A study of Mus musculus with 50 samples.

Results

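Axin2, Notum, Tcf7l1 and Ccnd1 are genes of canonical Wnt signalling, and each lies across from a second annotated gene on the other strand: Gm11670 opposite Axin2, 4732444A12Rik opposite Notum, Gm15401 opposite Tcf7l1 and Oraov1 opposite Ccnd1. These 8 genes, of 37310 in the RNA count tables, were taken by name. They were picked with their counts in these libraries known, so their values are given as a description and support nothing further. The RNA libraries came from mouse embryonic stem (ES) cells of the J1 line (strain 129S4/SvJae), untreated, grown in serum with leukemia inhibitory factor on gelatin. NSD1-/- cells of a line labelled KO1, NSD1-/- cells of a line labelled KO2, and wild type J1 cells had 2 libraries each. NSD1 is a histone H3 lysine 36 methyltransferase. How the NSD1-/- lines were made, and whether either is a single clone, is not stated in the labels. Nor is it stated that the paired libraries come from separate cultures, so the p-values measure the spread between libraries only, and this may be technical.

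The canonical Wnt pathway sets the level of beta-catenin. Without a Wnt ligand, a destruction complex built on the scaffold proteins Axin1 and Axin2 marks beta-catenin for degradation. With a ligand, beta-catenin reaches the nucleus and joins TCF/LEF factors at target genes. Axin2 is itself such a target and closes a negative feedback loop. Notum is a secreted enzyme that removes the lipid a Wnt ligand needs to bind its receptor, and is likewise a feedback inhibitor. Tcf7l1 (Tcf3) acts mainly as a repressor in mouse ES cells, where it dampens the genes that keep the cells pluripotent. Ccnd1 encodes cyclin D1, which drives cells from G1 into S phase and is widely used as a Wnt readout. Oraov1 is the counterpart of the yeast protein Lto1, which helps to load an iron-sulphur cluster onto a ribosome recycling factor. Gm11670 and 4732444A12Rik are annotated as processed transcripts with no coding sequence, and Gm15401 as a protein-coding gene; no role is given for them here.

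The counts at these loci lay almost wholly on the opposite genes, and the tables as a whole were built the same way. Each library held 1150089 to 1285487 counts, of which the ribosomal RNA locus AY036118 took 32.3% to 37.2%. Only 5431 of the 37310 genes have an exon facing an exon on the other strand, yet such genes took 88.55% to 90.57% of the counts outside AY036118. Genes that define ES cells had from few to moderate counts of their own, beside a median of 23 to 27 counts over the tested genes. Pou5f1 had 14 to 23 counts and Nanog 1 to 14, while Sox2 had 66 to 100 and Klf4 133 to 174. Gm17232, opposite the ES cell gene Tdh, had 2045 to 5888 counts, beside 9 to 35 at Tdh. Gm13061, opposite Lin28a, had 362 to 515, beside 10 to 22 at Lin28a. The authors counted only fragments on 1 strand of each gene, and no source used here says whether the library kit marks strand. At Tdh and Lin28a the counts of both sides were far from equal, so fragments there were not spread evenly over the strands. Which strand's RNA gave the fragments counted at Gm11670, 4732444A12Rik, Gm15401 and Oraov1 was not tested. Each value below thus belongs to the counted gene, with the Wnt gene across from it named beside it. None is to be read as the level of a transcript antisense to the Wnt gene. Nsd1 itself had 55 and 38 counts in KO1 libraries, 27 and 21 in KO2 libraries, and 21 and 25 in wild type libraries. These counts lie on the strand where Pou5f1 and Nanog had few counts and do not check the genotypes. The groups keep the names of their labels throughout.

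The overlap differed from pair to pair (coordinates are mm9, 1-based). Axin2 lies at chr11:108781663-108812097 on the plus strand and Gm11670 at chr11:108800624-108803329 on the minus strand, inside the body of Axin2. Of the 511 exon bases of Gm11670, 209 face Axin2 exons, of which 207 are Axin2 coding sequence, and the other 302 face Axin2 introns. Notum lies at chr11:120515102-120522489 on the minus strand and 4732444A12Rik at chr11:120520471-120523129 on the plus strand. The single exon of 4732444A12Rik, 2659 bases long, covers the start of Notum: 708 bases face Notum exons, 344 of them coding, 1311 face Notum introns and 640 lie upstream of Notum. Tcf7l1 lies at chr6:72576372-72739248 on the minus strand and Gm15401 at chr6:72579282-72587711 on the plus strand, in the 3′ part of Tcf7l1. Only 179 of the 1598 exon bases of Gm15401 face Tcf7l1 exons, 84 of them Tcf7l1 coding sequence, and 1419 face Tcf7l1 introns. Ccnd1 lies at chr7:152115836-152125774 on the minus strand and Oraov1 at chr7:152101005-152116653 on the plus strand, with the 3′ ends of the genes overlapping. Of the 4400 exon bases of Oraov1, 818 face the last exon of Ccnd1, none of them coding in Ccnd1, and 3582 lie outside Ccnd1.

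**Figure D1:**
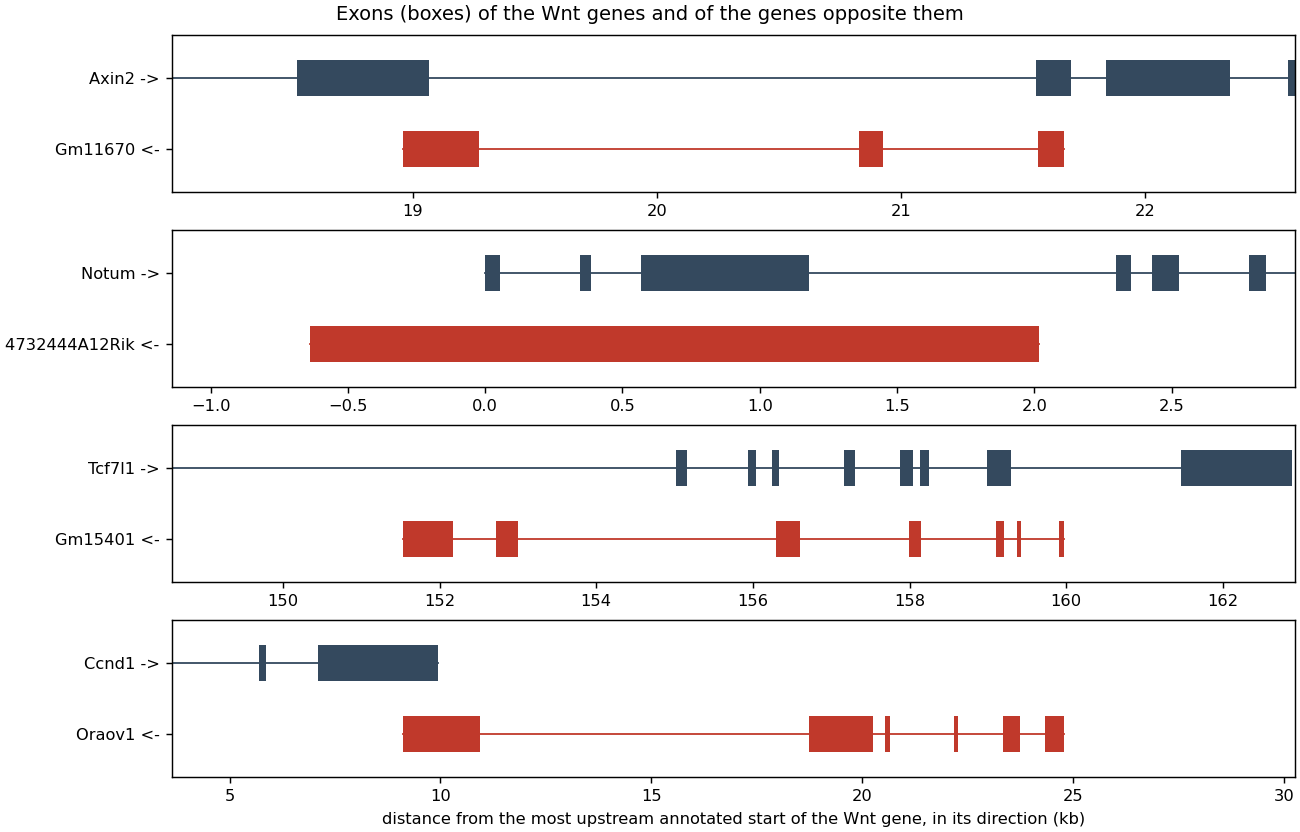
Exon maps of the 4 pairs. Each panel shows the Wnt gene (dark, upper row) and the gene opposite it (red, lower row), with exons as boxes, introns as lines, arrows for the direction of each gene, and distance in kilobases from the most upstream annotated start of the Wnt gene on the horizontal axis. Gm11670 and Gm15401 lie within their Wnt genes, 4732444A12Rik spans the start of Notum, and Oraov1 meets Ccnd1 end to end.

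The first and last exon of Gm11670, in genome order, hold the Axin2 coding bases that it faces. The middle exon, of 98 bases, holds none and is not printed. Where in Gm11670 its fragments fell was not tested. They are printed on the strand of Axin2, up to 150 bases each, with Axin2 coding bases in capitals (chr11:108800624-108800773 and chr11:108803226-108803329). The first holds 103 Axin2 coding bases and runs on into the intron, and all 104 bases of the last are Axin2 coding sequence.
Gm11670 first exon: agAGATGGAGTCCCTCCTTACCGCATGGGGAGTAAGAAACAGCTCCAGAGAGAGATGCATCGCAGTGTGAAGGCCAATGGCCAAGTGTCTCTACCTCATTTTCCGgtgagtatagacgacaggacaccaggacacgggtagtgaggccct
Gm11670 last exon: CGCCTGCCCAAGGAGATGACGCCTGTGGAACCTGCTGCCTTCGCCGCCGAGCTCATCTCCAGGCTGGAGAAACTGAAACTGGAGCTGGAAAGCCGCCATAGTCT

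The 300 bases before the gene start of Axin2, Notum and Tcf7l1 were searched on both strands for CTTTGA and CTTTGT, the core letters that TCF/LEF factors bind. They are shown for the feedback targets Axin2 and Notum, on the strand of each gene, with a match in capitals. Axin2 (chr11:108781363-108781662) held no match in this window. Notum (chr11:120522490-120522789) held CTTTGA 71 bases before its start, within the exon of 4732444A12Rik. The same window of Tcf7l1 held no match. Of 22380 such windows of protein-coding genes, 16.43% held CTTTGA, 18.61% CTTTGT and 31.58% either, so a match is common and is no more than a description.
Axin2 upstream: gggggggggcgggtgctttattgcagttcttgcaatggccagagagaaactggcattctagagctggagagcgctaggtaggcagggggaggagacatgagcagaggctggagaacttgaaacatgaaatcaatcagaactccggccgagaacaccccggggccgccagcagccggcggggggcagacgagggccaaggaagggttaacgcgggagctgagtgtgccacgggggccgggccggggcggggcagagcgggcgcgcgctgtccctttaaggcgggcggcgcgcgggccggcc
Notum upstream: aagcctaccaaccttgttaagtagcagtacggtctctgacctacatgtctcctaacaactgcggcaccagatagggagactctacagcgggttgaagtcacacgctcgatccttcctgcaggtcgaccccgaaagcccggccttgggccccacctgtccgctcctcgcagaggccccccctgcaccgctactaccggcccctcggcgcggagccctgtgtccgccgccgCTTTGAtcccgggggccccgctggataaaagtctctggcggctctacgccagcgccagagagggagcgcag

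Levels are given in CPM, counts scaled to a common effective library size, and a fold change as log2 with the standard error of the fit over all 6 libraries. KO1 against wild type and KO2 against wild type share the wild type libraries. A gene was called where its adjusted p over the 5034 tested genes was under 0.05. All 8 genes passed the filter on low counts. In KO2 against wild type, 4 of the 8 were called, 3 higher and 1 lower, where 8.98% of all tested genes were called (5.01% higher and 3.97% lower). In KO1 against wild type 1 was called, higher, against 9.79% of all tested genes (3.46% higher and 6.34% lower). In KO1 against KO2, 5 were called, 2 higher and 3 lower, against 19.3% of all tested genes (7.93% higher and 11.4% lower). In the mean of both KO lines against wild type, 2 were called, both higher, against 6.62% (2.72% higher and 3.89% lower). Among the 683 genes with a mean of at least 200 counts these shares were 26.1%, 32.7%, 50.8% and 21.8%. Since the genes were picked with these values known, nothing is read from the counts. The median log2 fold change of the 8 genes was 0.35 in KO2 against wild type, 0.07 in KO1 against wild type and -0.50 in KO1 against KO2, beside -0.01, 0.01 and 0.02 over all tested genes.

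Gm11670, opposite the feedback scaffold Axin2, was higher in KO2 cells than in either other group. It had 579.7 and 512.3 CPM in KO1 libraries, 1088.2 and 1113 CPM in KO2 libraries, and 534.6 and 531.4 CPM in wild type libraries. Both KO2 libraries were far above all others, and the wild type libraries fell between the KO1 libraries. The means were 546 ± 47.7 CPM in KO1, 1101 ± 17.6 CPM in KO2 and 533 ± 2.3 CPM in wild type (SD, n = 2 each). In KO2 against wild type the log2 fold change was 1.05 ± 0.07, a fold of 2.07. In KO1 against wild type it was 0.04 ± 0.07, and in KO1 against KO2 it was -1.01 ± 0.07. These are bulk libraries, in which fewer cells with a transcript and less of it per cell cannot be told apart.

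Axin2 had far fewer counts than Gm11670, with a similar order of the groups. It had 15 and 17 counts in KO1 libraries, 28 and 24 in KO2 libraries, and 14 and 11 in wild type libraries, and its levels were 12.1 and 14.3 CPM in KO1, 25 and 19.8 CPM in KO2, and 12.2 and 9.35 CPM in wild type. Both KO2 libraries were above all others, while KO1 and wild type overlapped. On the log2 scale the difference was 1.04 ± 0.34 in KO2 against wild type, 0.29 ± 0.38 in KO1 against wild type and -0.75 ± 0.32 in KO1 against KO2, and none of these was called. The point estimates for Axin2 and Gm11670 in KO2 against wild type thus differ by less than the error of Axin2. Per kilobase of exon, the counts at Gm11670 stood at 1069 CPM in KO1, 2154 CPM in KO2 and 1043 CPM in wild type. Those at Axin2 stood at 2.4 CPM in KO1, 4.06 CPM in KO2 and 1.96 CPM in wild type. Since the strand of the RNA behind either count was not tested, these values do not compare the abundance of 2 transcripts.

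**Figure D2:**
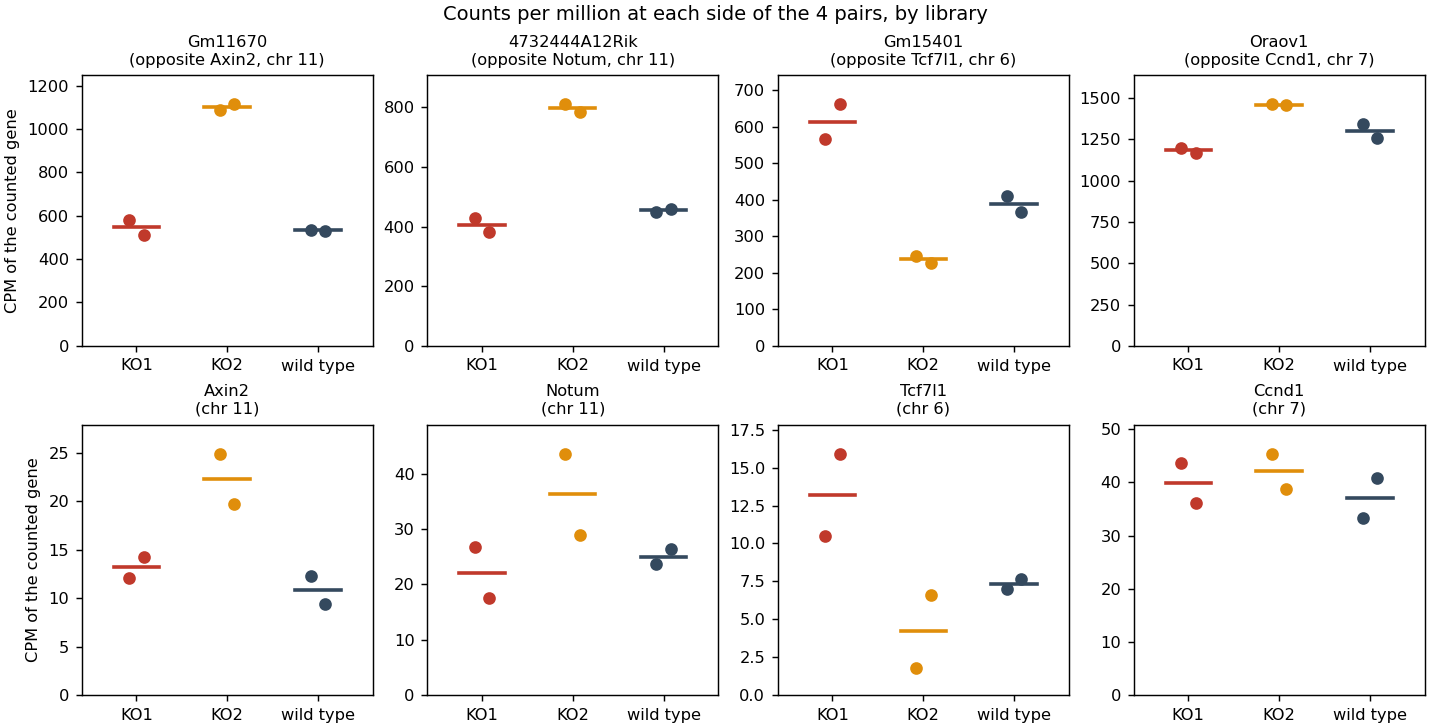
Level of each gene in every library. Points are libraries, bars are group means (n = 2 each), and the vertical axes show CPM from 0, with the gene opposite in the upper row and the Wnt gene below it. Gm11670 and 4732444A12Rik are highest in KO2, Gm15401 is highest in KO1 and lowest in KO2, and Oraov1 and Ccnd1 differ little between groups.

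4732444A12Rik, opposite the Wnt-inactivating enzyme Notum and also on chromosome 11, was likewise highest in KO2 cells. It had 427.7 and 383.2 CPM in KO1 libraries, 809.2 and 783.2 CPM in KO2 libraries, and 449.7 and 459.9 CPM in wild type libraries. The KO2 libraries were clear of all others, and both KO1 libraries were below both wild type libraries. In KO2 against wild type it differed by a log2 fold change of 0.81 ± 0.07, a fold of 1.75. The value was -0.17 ± 0.08 in KO1 against wild type, which was not called, and -0.97 ± 0.07 in KO1 against KO2. Another gene of the other strand, Gm11768, faces 210 coding bases of Notum elsewhere, but its largest exon overlap is with Myadml2. Of its 1044 exon bases, 532 face Notum introns and 302 lie outside Notum. It averaged 251 CPM in KO1, 523.4 CPM in KO2 and 284.6 CPM in wild type, and is not a separate measure of Notum.

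Notum itself had 33 and 21 counts in KO1 libraries, 49 and 35 in KO2 libraries, and 27 and 31 in wild type libraries. In CPM these were 26.7 and 17.6 in KO1, 43.7 and 28.9 in KO2, and 23.6 and 26.4 in wild type. The KO2 libraries were again the highest, though the lower of them was close to the highest of the others. Its log2 fold change was 0.52 ± 0.27 in KO2 against wild type, -0.17 ± 0.30 in KO1 against wild type and -0.69 ± 0.28 in KO1 against KO2, none of them called. Without KO2 replicate 2 the last of these was -0.98 and was called.

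Gm15401, opposite the repressor Tcf7l1, was called in opposite directions in the KO lines, higher in KO1 and lower in KO2. It had 565.2 and 660.7 CPM in KO1 libraries, 246.9 and 227.6 CPM in KO2 libraries, and 409.5 and 367.3 CPM in wild type libraries. No group overlapped another: KO1 was highest, wild type in the middle and KO2 lowest. The means were 612.9 ± 67.5 CPM in KO1, 237.2 ± 13.7 CPM in KO2 and 388.4 ± 29.8 CPM in wild type (SD, n = 2 each). The log2 fold change was 0.66 ± 0.08 in KO1 against wild type, a fold of 1.58, and -0.71 ± 0.10 in KO2 against wild type, a fold of 0.61. In KO1 against KO2 it was 1.37 ± 0.09, a fold of 2.58. The mean of both lines hid this, with a log2 fold change of -0.03 ± 0.08 against wild type.

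Tcf7l1 had 13 and 19 counts in KO1 libraries, 2 and 8 in KO2 libraries, and 8 and 9 in wild type libraries, the fewest of the 4 Wnt genes. In CPM these were 10.5 and 15.9 in KO1, 1.78 and 6.6 in KO2, and 7 and 7.65 in wild type. The order of the groups was that of Gm15401, with all KO1 libraries above and all KO2 libraries below wild type, on a handful of counts each. Its log2 fold change was 0.84 ± 0.47 in KO1 against wild type and -0.76 ± 0.61 in KO2 against wild type, neither called. In KO1 against KO2 it was 1.6 ± 0.53 and was called, but the call was lost without KO1 replicate 2 (1.27) and without KO2 replicate 1 (0.97).

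Oraov1, opposite cyclin D1, had the most counts of the 8 genes and the smallest range between groups of the 4 opposite genes. It had 1195.8 and 1169.6 CPM in KO1 libraries, 1460.7 and 1459.3 CPM in KO2 libraries, and 1339.6 and 1255.7 CPM in wild type libraries. The groups did not overlap, with KO2 highest and KO1 lowest. The log2 fold change was 0.17 ± 0.05 in KO2 against wild type, -0.13 ± 0.06 in KO1 against wild type and -0.30 ± 0.06 in KO1 against KO2. The first and the last were called, and the first was called in 5 of 15 alternative settings, with values from 0.14 to 0.23. It was lost, among others, without KO1 replicate 1 (0.17), KO1 replicate 2 (0.16), KO2 replicate 1 (0.19), KO2 replicate 2 (0.18) or wild type replicate 2 (0.14).

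Ccnd1 had 54 and 43 counts in KO1 libraries, 51 and 47 in KO2 libraries, and 38 and 48 in wild type libraries. In CPM these were 43.7 and 36.1 in KO1, 45.5 and 38.7 in KO2, and 33.2 and 40.8 in wild type, and all groups overlapped. Its log2 fold change was 0.11 ± 0.22 in KO1 against wild type, 0.18 ± 0.22 in KO2 against wild type and -0.07 ± 0.22 in KO1 against KO2, none of them called. These standard errors are larger than the changes of Oraov1 in either line against wild type.

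The Wnt gene took a small and similar share of the counts of its pair in all groups. Axin2 took 2.05% and 2.71% in KO1 libraries, 2.24% and 1.75% in KO2 libraries, and 2.24% and 1.73% in wild type libraries, with Wilson 95% intervals that reach at most from 0.97% to 4.29%. Notum took 5.87% and 4.39% in KO1, 5.12% and 3.55% in KO2, and 4.99% and 5.42% in wild type. Tcf7l1 took 1.83% and 2.35% in KO1, 0.72% and 2.82% in KO2, and 1.68% and 2.04% in wild type. The KO2 values of Tcf7l1 rest on 2 of 279 and 8 of 284 counts, with intervals of 0.20% to 2.58% and 1.43% to 5.46%. Ccnd1 took 3.52% and 2.99% in KO1, 3.02% and 2.59% in KO2, and 2.42% and 3.15% in wild type. Within each pair the intervals of all 6 libraries overlapped, and they cover counting error only.

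Chromosome 11 was shifted as a whole in KO2 and chromosome 6 in KO1, while chromosome 7 was flat in both lines. The median log2 fold change of the other 556 tested genes of chromosome 11 was 0.39 in KO2 against wild type and 0.07 in KO1 against wild type. Of these, 121 were called higher and 2 lower in KO2, beside 14 higher and 23 lower in KO1. On chromosome 6, the median of the other 257 tested genes was -0.42 in KO1 against wild type and -0.01 in KO2 against wild type, with 4 called higher and 64 lower in KO1. The median of the 428 other genes of chromosome 7 was 0.02 in KO1 and -0.09 in KO2. The shift was alike in both libraries of a line: relative to wild type it was 0.05 and 0.04 in KO1 libraries and 0.40 and 0.40 in KO2 libraries for chromosome 11, and -0.42 and -0.42 in KO1 libraries and -0.01 and -0.02 in KO2 libraries for chromosome 6.

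Gm11670 and 4732444A12Rik went the way of chromosome 11 in KO2, and further than its median. Gm11670 lay 0.66 above that median on the log2 scale and above 167 of the 172 genes of chromosome 11 with a mean of at least 50 counts. 4732444A12Rik lay 0.42 above the median and above 155 of the 172. The median of the 28 tested genes within 5 Mb of Gm11670 was 0.27, and that of the 75 around 4732444A12Rik was 0.40. With each chromosome scaled on its own, the log2 fold change in KO2 was 0.63 for Gm11670 and 0.39 for 4732444A12Rik, and both were still called. So scaled, Axin2 was at 0.63 and Notum at 0.11, neither called.

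Gm15401 went against its chromosome. In KO1, where chromosome 6 was low, Gm15401 lay 1.08 above the chromosome median on the log2 scale and above 87 of the 88 genes with a mean of at least 50 counts. In KO2, where the chromosome was level with wild type, it lay 0.70 below the median and below 86 of the 88. The 14 tested genes within 5 Mb had medians of -0.42 in KO1 and -0.03 in KO2, close to those of the chromosome. With each chromosome scaled on its own, the log2 fold change of Gm15401 was 1.14 in KO1 against wild type and -0.68 in KO2 against wild type. Tcf7l1 was at 1.32 and -0.73 by that scaling, neither called. Oraov1 lay 0.15 below the median of chromosome 7 in KO1 and 0.26 above it in KO2, above 101 of 124 genes.

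**Figure D3:**
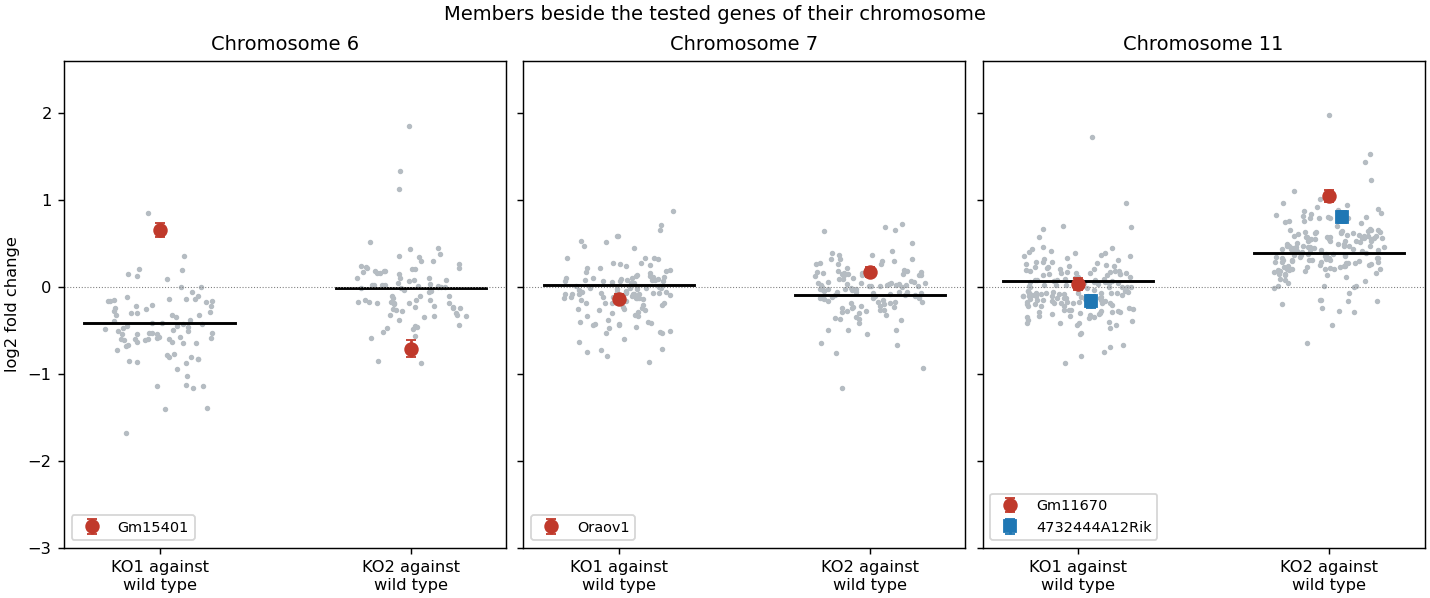
The more abundant opposite genes beside the other genes of their chromosome. Grey points are tested genes with a mean of at least 50 counts (384 in all), black bars are the medians of all tested genes of the chromosome, and large symbols are the named genes with the standard error of the fit, on a vertical axis of log2 fold change for KO1 against wild type and KO2 against wild type. Gm15401 lies above nearly all genes of chromosome 6 in KO1 and near the bottom in KO2, while Gm11670 and 4732444A12Rik lie in the upper part of a raised chromosome 11 in KO2.

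The 3 genes most alike in pattern over the libraries to each of the 4 opposite genes were spread over several chromosomes. Of these 12, 10 had an annotated gene across from them, as did 53.5% of the genes compared. Likeness was the Pearson correlation of log2 CPM over the 6 libraries among the 5017 genes that averaged 5 CPM or more, as a description: with 6 libraries in 3 groups, 71 to 83 genes exceeded 0.95 for each of the 4 genes. Nearest to Gm11670 were Gm12352 (opposite 1810046J19Rik, chromosome 11, r = 0.9905), Gm4673 (opposite Lsr, chromosome 7, r = 0.9898) and Rundc3a (chromosome 11, r = 0.9891). Gm12352 averaged 276.9 CPM in KO1, 510.5 CPM in KO2 and 293.2 CPM in wild type. Nearest to 4732444A12Rik were Gm15756 (opposite Aldh1l1, chromosome 6), Sfi1 (opposite Gm11399, chromosome 11) and Gm11768 (opposite Myadml2, chromosome 11), with r of 0.9985, 0.9982 and 0.9976. Nearest to Gm15401 were C030034L19Rik (opposite Zfp704, chromosome 3, r = 0.9963), Ptch1 (chromosome 13, r = 0.9958), the receptor of Hedgehog signalling, and Gm17041 (opposite Cish, chromosome 9, r = 0.9887). C030034L19Rik averaged 640.2 CPM in KO1, 293.6 CPM in KO2 and 444 CPM in wild type, the same order as Gm15401. Ptch1 had that order at a far lower level, with 8.24 CPM in KO1, 4.29 CPM in KO2 and 6.04 CPM in wild type. Nearest to Oraov1 were 1110021J02Rik (opposite Ftsjd2, chromosome 17), Gorasp1 (opposite Wdr48, chromosome 9) and Snx22 (opposite Ppib, chromosome 9), with r of 0.9964, 0.996 and 0.9941.

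On a wider list of Wnt pathway genes, 1 to 4 genes were called by own symbol and 1 to 3 by opposite gene in each comparison. A list of 107 other pathway genes was chosen by role, with earlier results of these data known. Of these, 21 were tested under their own symbol and 12 through a counted gene opposite them. Under their own symbol 1 rose and none fell in the KO lines together, none rose and 1 fell in KO1 against wild type, 2 rose and none fell in KO2 against wild type, and 1 was higher and 3 lower in KO1 against KO2. Through the opposite gene the counts were 0 higher and 2 lower in the KO lines, 0 and 1 in KO1, 0 and 1 in KO2, and 2 and 1 in KO1 against KO2. By own symbol these are 4.76%, 4.76%, 9.52% and 19% of the 21 genes, and by opposite gene 16.7%, 8.33%, 8.33% and 25% of the 12, beside 6.62%, 9.79%, 8.98% and 19.3% of all tested genes, and on so few genes nothing is read from the differences. The medians by own symbol were 0.11 in the KO lines, 0.08 in KO1, -0.06 in KO2 and 0.05 in KO1 against KO2, and those by opposite gene -0.06, -0.04, -0.07 and 0.08. Over all tested genes they were -0.01, 0.01, -0.01 and 0.02. With DESeq2 no gene opposite a listed gene was called in the KO lines, in KO1 or in KO1 against KO2. With the 4 KO libraries taken as 1 group, so that the distance between KO1 and KO2 adds to the error, the calls of Dvl2, Gm16682 and Ccdc85b in the KO lines were lost. All adjusted p below come from the quasi-likelihood test of edgeR, with the Benjamini-Hochberg method over the 5034 genes.

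No gene of Wnt secretion was tested, and no tested ligand, receptor or secreted inhibitor was called in any of the 4 comparisons. By own symbol, only 1 of 23 ligands, 2 of 18 receptors and 1 of 17 surface and secreted inhibitors were tested. By opposite gene, 1 inhibitor was tested and no ligand or receptor. The other listed genes of these roles had too few counts to test, so nothing is read from the lack of calls. In the KO lines against wild type the ligand Wnt2b was at -0.33 ± 0.36, the receptor Fzd5 at -0.43 ± 0.23 and the co-receptor Lrp5 at 0.48 ± 0.58 on the log2 scale. Among secreted inhibitors, Sfrp1 was at -0.01 ± 0.35 and Gm16790, opposite Sfrp2, at -0.12 ± 0.35. These genes had at most 36 counts in a library, and their standard errors span changes of the size seen at Notum.

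In the cytoplasmic part of the pathway, the genes called in KO2 against wild type were Dvl2, which relays the signal from the receptor, and Csnk1d, a casein kinase. Both lie on chromosome 11. Dvl2 shares 1151 exon bases with the gene opposite it and Csnk1d 831. Which strand's RNA gave the fragments counted at Dvl2 and Csnk1d was not tested, so each value belongs to the counted gene. Dvl2 had 168 and 155 counts in KO1 libraries, 387 and 377 in KO2 libraries, and 170 and 153 in wild type libraries. In the KO lines together it rose by 0.58 ± 0.10 on the log2 scale (adjusted p = 0.000274). It rose in KO2 against wild type by 1.23 ± 0.11 (adjusted p = 1.11e-09) and was at -0.07 ± 0.12 in KO1 (adjusted p = 0.813). Dvl2 is itself opposite Acadvl, an enzyme of fatty acid oxidation, and Acadvl was at -0.15 ± 0.10 in KO2 (adjusted p = 0.406). Csnk1d had 327 and 380 counts in KO1 libraries, 854 and 789 in KO2 libraries, and 428 and 507 in wild type libraries. It rose in KO2 by 0.81 ± 0.09 (adjusted p = 6.46e-08) and fell in KO1, at -0.47 ± 0.10 (adjusted p = 0.00135). Without KO1 replicate 1 the KO1 value was -0.33 and was not called. With each chromosome scaled on its own, the KO2 values were 0.82 for Dvl2 and 0.39 for Csnk1d, and that of Dvl2 in the KO lines was 0.37, all still called. Csnk1d is opposite Slc16a3, a lactate transporter, which was at 0.47 ± 0.18 in KO2 (adjusted p = 0.121).

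Nkd2, which restrains dishevelled proteins and is named here after its values were seen, had 12 and 22 counts in KO1 libraries and 3 and 4 in KO2 libraries. It was higher in KO1 than in KO2 by 2.19 ± 0.57 on the log2 scale (adjusted p = 0.00524), and without KO1 replicate 2, at 1.65, it was not called. Gm9939, opposite Tnks, the tankyrase that promotes Axin turnover, had 510 and 482 counts in KO1 libraries and 381 and 425 in KO2 libraries. It was higher in KO1 by 0.24 ± 0.08 (adjusted p = 0.0326), and the call was lost without any 1 of the KO1 and KO2 libraries, at 0.20 to 0.25, and with each chromosome scaled on its own, at 0.21. The 7 tested genes opposite a gene of the destruction complex or cytoplasm lay between -0.52 ± 0.27 (4930474H06Rik, opposite Dact1) and 0.35 ± 0.16 (Slc16a3) on the log2 scale in the KO lines against wild type, and none was called. Ulk4, opposite the beta-catenin gene Ctnnb1, was at -0.06 ± 0.08 (adjusted p = 0.761). These genes were named after their values were seen.

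Among nuclear factors, Gm16682 was lower in the KO lines. It lies opposite Chd8, a chromatin remodeller that binds beta-catenin. It had 847 and 884 counts in KO1 libraries, 710 and 788 in KO2 libraries, and 886 and 982 in wild type libraries. In CPM it averaged 713 ± 39.8 in KO1, 641.2 ± 12 in KO2 and 805 ± 42.2 in wild type (SD, n = 2 each). It fell by 0.25 ± 0.06 on the log2 scale in the KO lines (adjusted p = 0.0046) and by 0.33 ± 0.07 in KO2 (adjusted p = 0.0013), and was at -0.18 ± 0.07 in KO1 (adjusted p = 0.0922). Without wild type replicate 2 the value for the KO lines was -0.19 and was not called. Gm13066, opposite Ctnnbip1, which blocks beta-catenin from TCF factors, was lower in KO1 than in KO2 by a log2 fold change of -0.40 ± 0.14 (adjusted p = 0.0437), with 114 and 120 counts in KO1 libraries and 153 and 143 in KO2 libraries. Its call was lost without KO1 replicate 1 (-0.32), KO1 replicate 2 (-0.47) or KO2 replicate 1 (-0.31).

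Among targets, Ccdc85b, opposite the AP-1 subunit gene Fosl1, was lower in the KO lines. It had 16 and 15 counts in KO1 libraries, 21 and 20 in KO2 libraries, and 29 and 41 in wild type libraries. The log2 fold change was -1.01 ± 0.25 in the KO lines (adjusted p = 0.0102) and -1.24 ± 0.31 in KO1 (adjusted p = 0.00635), with -0.78 ± 0.29 in KO2, which was not called (adjusted p = 0.0899). Without wild type replicate 2 these were -0.75 and -0.99 and neither was called, and the KO1 call was also lost without KO1 replicate 1 (-1.24) or KO1 replicate 2 (-1.23). Gm2301, opposite the T-box gene Tbx3, had 751 and 724 counts in KO1 libraries and 558 and 620 in KO2 libraries, a log2 fold change of 0.27 ± 0.07 in KO1 against KO2 (adjusted p = 0.0084). It was not called without KO1 replicate 1 (0.28), KO1 replicate 2 (0.26) or KO2 replicate 1 (0.23). Cdx1, a homeobox gene, had 13 and 8 counts in KO1 libraries and 18 and 25 in KO2 libraries, at -1.08 ± 0.38 (adjusted p = 0.0427). It was not called without KO1 replicate 1 (-1.43), KO1 replicate 2 (-0.81) or KO2 replicate 2 (-0.90).

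**Figure D4:**
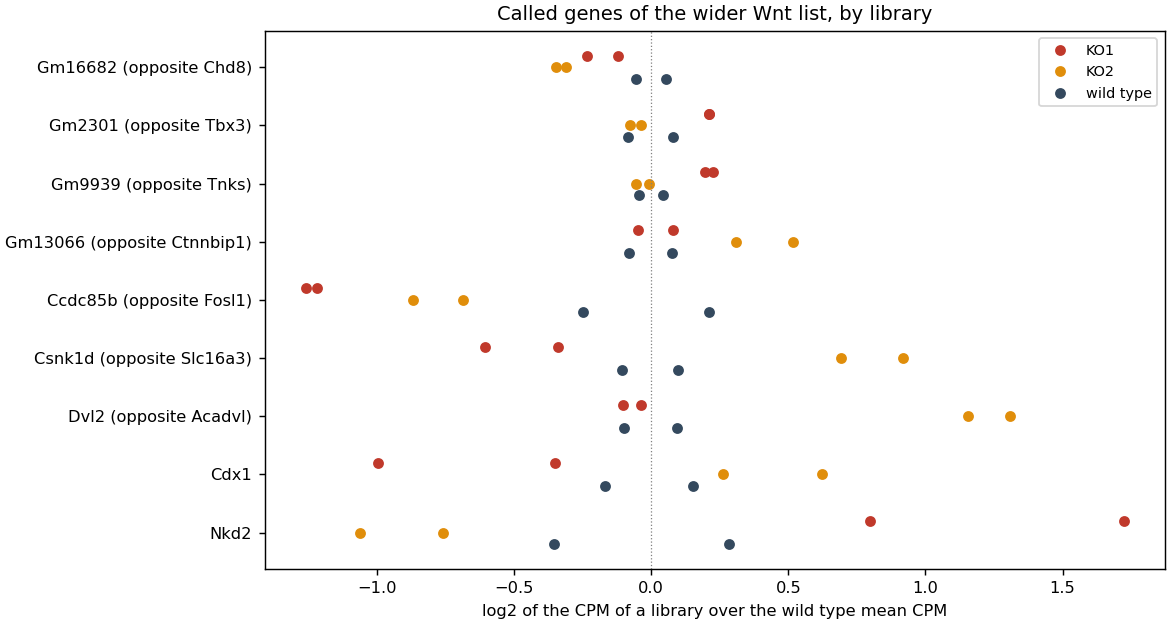
Called genes of the wider Wnt list in every library. Points are libraries of KO1, KO2 and wild type (n = 2 each), and the horizontal axis is log2 of the CPM of a library over the wild type mean. Dvl2 and Csnk1d lie far to the right in KO2, Ccdc85b lies to the left in both KO lines, and Nkd2 and Cdx1 spread widely on few counts.

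Markers of ES cells and of other cell types were checked beside these values. The summed level of the genes opposite ES cell markers, Gm17232 and Gm13061, was 2018 to 2108 CPM in KO1, 5161 to 5203 CPM in KO2 and 4325 to 4466 CPM in wild type. Gm17232 made up most of it, with 1749 CPM in KO1, 4843 CPM in KO2 and 3956 CPM in wild type. Under their own symbols the 12 ES cell markers summed to 293.5 to 317.8 CPM in KO1, 323.2 to 351.1 CPM in KO2 and 311.2 to 328.1 CPM in wild type. Neuroectoderm markers summed to 176.3 to 178.6 CPM in KO1, 143.5 to 166.5 CPM in KO2 and 156.6 to 157.3 CPM in wild type, nearly all at Pax6 (159 to 215 counts), with Zic1 at 0 counts. Streak and mesoderm markers summed to 27.7 to 35.6 CPM in KO1, 33 to 44.6 CPM in KO2 and 41.1 to 45.9 CPM in wild type. Most of this lay at Tbx6 (20 to 36 counts) and Eomes (5 to 21 counts), with Mesp1 and Gsc at 0 counts. The 6 endoderm markers had 0 or 1 count in every library. Of 8 fibroblast markers, Col1a2, Col3a1 and Thy1 had 0 counts throughout, while Tagln had 42 to 55 and Fn1 26 to 46. Of the 8, 4 had a counted gene opposite them. The summed level of these opposite genes was 1247 to 1319 CPM in KO1, 1193 to 1245 CPM in KO2 and 1345 to 1401 CPM in wild type. Apol7d, opposite Fn1, made up most of it and was not lower in the KO lines. It averaged 1240 CPM in KO1, 1189 CPM in KO2 and 1181 CPM in wild type. The genes opposite Col5a1 together averaged 25.4 CPM in KO1, 17.4 CPM in KO2 and 43.5 CPM in wild type. Gm17329, opposite the collagen gene Col1a1, averaged 2.88 CPM in KO1, 2.2 CPM in KO2 and 74.1 CPM in wild type, and Syn3, opposite Timp3, averaged 14.4 CPM in KO1, 10.2 CPM in KO2 and 74 CPM in wild type. The part of these markers in the values of the Wnt pathway genes was not tested.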

How the data were processed

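RNA of 6 libraries was analysed. Not analysed here were 44 chromatin samples of the 50 in the series. The deposited values are raw counts per gene. Per the file headers, featureCounts 2.0.1 counted paired fragments over exons by gene with strand setting 1 and GENCODE mouse version 1 on mm9, whose spans and strands equalled those of all 37310 genes. The submitters' processing notes also name bedtools 2.92.2, featureCounts 2.0.0, GATK 4.1.4.0, Bowtie2, STAR 2.5.4b and Trim Galore 0.6.4, with no role for each.

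Counts were fitted in R 4.3.3 with edgeR 4.0.16: filterByExpr with a minimum count of 10 (5034 genes kept, median 23 to 27 counts per library), TMM scaling and a robust quasi-likelihood fit with 1 mean per group, 3 residual degrees of freedom and a common biological coefficient of variation of 4.46%. The fit was also run on simulated counts, with the same dispersion for all genes and the same change planted in all KO libraries. These held no chromosome shift and no difference between the KO lines, so they do not test the fit for such patterns. Opposite genes share at least 50 exon bases on the other strand. Sequences came from the mm9 reference. Alternatives included DESeq2 1.42.0 and other scalings and filters.

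The 8 genes and all lists were chosen with earlier results of these data known. Named from the Wnt list were every called gene, at most 6 per comparison by mean CPM, and in roles with none the 2 with the highest CPM. Nkd2, 4930474H06Rik, Ulk4, Acadvl and Slc16a3 fall outside this rule. Libraries of a group differed by more than sampling noise (chi-square per degree of freedom 1.5 to 2.15). This chi-square kept AY036118 in, and the part of that locus in it was not separated. AY036118 took 33.3% and 37.2% of counts in KO1 libraries, 32.3% and 34.8% in KO2 libraries, and 35.4% and 36.7% in wild type libraries.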

Additional observations from a re-analysis of the deposited data

Results flagged for a closer look

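The KO lines differed from each other at 5 of the 8 genes. The log2 fold change in KO1 against KO2 was -1.01 for Gm11670, -0.97 for 4732444A12Rik, 1.37 for Gm15401, 1.6 for Tcf7l1 and -0.30 for Oraov1. These 5 were called in KO1 against KO2, a comparison known when the genes were picked. On the wider Wnt list, KO1 against KO2 differed at Dvl2 (-1.30), Csnk1d (-1.28), Nkd2 (2.19), Cdx1 (-1.08), Gm13066 (-0.40), Gm2301 (0.27) and Gm9939 (0.24), each past an adjusted p of 0.05 in edgeR's quasi-likelihood test. By own symbol 19% and by opposite gene 25% of the tested list genes were called here, beside 19.3% of all tested genes.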

How the results depend on the processing

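Counts of called genes depended on the tool. DESeq2 called 91 genes in the KO lines against wild type, where edgeR called 333, and 182 against 493 in KO1 against wild type, 137 against 452 in KO2 against wild type and 370 against 971 in KO1 against KO2. With the 4 KO libraries as 1 group, 6 were called in the KO lines. Leaving out a library gave 213 to 362 in the KO lines (213 without wild type replicate 1, 218 without wild type replicate 2), 280 to 591 in KO1, 328 to 435 in KO2 and 561 to 1065 in KO1 against KO2. On the Wnt list by own symbol, leaving out a library gave 1 to 2 in the KO lines, 0 to 1 in KO1 and 2 to 4 in KO1 against KO2, where DESeq2 and a minimum count of 20 gave 2. By opposite gene, DESeq2 called 0 in the KO lines, 0 in KO1 and 0 in KO1 against KO2. Total counts gave 1 in the KO lines and 3 in KO1. A minimum count of 20 gave 3 in KO1 and 2 in KO2, no filter gave 0 in KO1 against KO2, and chromosomes scaled on their own gave 3 in KO2. Without AY036118, and with only the groups compared in the fit, 2 were called in KO1. Leaving out a library gave 0 to 2 in the KO lines, 0 to 2 in KO1, 1 to 2 in KO2 and 0 to 3 in KO1 against KO2. The cause was not tested.

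Of the 8 genes, Gm11670 and 4732444A12Rik in KO2 against wild type and Gm15401 in KO1 and in KO2 against wild type kept direction and call in 15 of 15 alternatives. In the KO lines, Gm11670 lost its call with the 4 KO libraries as 1 group, and 4732444A12Rik also with chromosomes scaled on their own. Axin2 in KO2 was called in 3 of 15. Scaling by total counts moved the median of all genes in KO1 against wild type to 0.12, and Oraov1 to -0.01. The replicate numbers did not pair the libraries: deviations of same-numbered libraries correlated at 0.0012 to 0.0284 over 1625 genes. With a replicate block, 321 genes were called in the KO lines, 482 in KO1, 416 in KO2 and 935 in KO1 against KO2. The Wnt genes had 2 to 54 counts in a library, which limits what can be seen at these genes.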
